A study of Mus musculus with 16 samples.

Results

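The H3K27me3 peaks described here were found in EA-HFSCs and in no other population. They were chosen by comparing the H3K27me3 peak lists of 4 populations sorted from mouse skin, and a peak of the EA-HFSC list was kept when it overlapped no H3K27me3 peak of LC-HFSCs, non-EA-HFSCs or non-LC-HFSCs by as little as 1 bp. The rule kept 13934 of the 25534 EA-HFSC peaks, or 54.6% (95% Wilson interval 53.96 to 55.2%), and they are called EA-only peaks in the following. The other 11600 EA-HFSC peaks overlapped at least 1 of the other lists and are called shared, and 1503 of them overlapped all 3. The EA-only peaks make up 6.34% of the 219698 peaks in the 12 lists of the series.

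All mice were wild type of the CD1 x FVB strain and labelled male, although the methods of the study say that mice of either sex served for most analyses, and cells of several mice were pooled. EA-HFSCs are the CD34+/α6-integrin+ bulge cells of early anagen at PD22 to PD25, when the follicle starts to grow, and LC-HFSCs are the cells sorted by these markers in late catagen at PD38 to PD44, when the follicle has regressed. The CD34-/α6-integrin+ cells sorted at those ages are called non-EA-HFSCs and non-LC-HFSCs. They are mostly epidermis and lower outer root sheath, so that a peak missing in them is missing in the average of a mixture. Chromatin of each population was cut with micrococcal nuclease and divided between antibodies to H3K4me3, H3K9me3 and H3K27me3 and a control IgG. Reads of repeated experiments had been pooled before peaks were called, which left 1 list per population and mark. Differences between lists therefore could not be set against replicates or tested. The 95% intervals cover counting error only, neighbouring peaks are not independent, and the read depth behind each peak is unknown. A peak's score is 10 times the negative log10 of its p-value against IgG, with 40 the lowest in these lists. A score depends on depth and background, and it was compared within the EA-HFSC list alone.

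The sort was checked on H3K4me3, a mark of active and poised gene starts, within 3000 bp of the start of marker genes. EA-HFSCs carried it at Krt5 and Krt14, keratins of basal keratinocytes, and at the bulge genes Sox9, Lhx2, Krt15, Lgr5, Tcf7l1 and Nfatc1. These starts were marked in all 4 populations, but for Lhx2, which lacked H3K4me3 in non-LC-HFSCs, so that they do not separate HFSCs from non-HFSCs. At Cd34, the surface protein used for sorting, H3K4me3 was found in EA-HFSCs and LC-HFSCs and in neither non-HFSC population, both of which had H3K27me3 there. No H3K4me3 peak was found at Itga6, which encodes the other sorting marker, in any population. Among markers of other skin cells, EA-HFSCs had H3K4me3 at Dct and Pmel of melanocytes, Cd68 of macrophages, Pdgfra and Col1a1 of fibroblasts and Atoh1 of Merkel cells. They had none at Tyr, Mlana, Ptprc, Cd3e, Lum, Pecam1, Cdh5 and Krt20. The part that other cells of the sort have in the EA-only peaks was not tested.

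H3K27me3 is written by Polycomb repressive complex 2, whose catalytic subunit is Ezh1 or Ezh2. It marks silent genes, foremost the CpG-rich starts of transcription factor genes that direct development, and it can spread from there over broad domains. In the hair follicle, Polycomb complexes hold back genes of other lineages. H3K4me3 marks gene starts, a start with both marks is called bivalent, and H3K9me3 is best known from heterochromatin and repeats.

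Reference sequence of mm9 is given first for 4 EA-only peaks, since CpG content sets most EA-only peaks apart from the CpG-rich gene starts that H3K27me3 is known for. Each is a 200 base window on the plus strand, with CpG dinucleotides in capitals. The first is the middle of the highest-scoring EA-only peak, in an intron of Arfip1 (chr3:85316954-85317153). The second is the middle of the highest-scoring peak in Clstn2, also in an intron (chr9:97845360-97845559). The third is the middle of the intergenic peak closest to the median score and width (chr5:133171083-133171282). The fourth is the CpG-richest stretch without an annotated exon in the peak at Wnt3a (chr11:59102505-59102704).
Arfip1 intron: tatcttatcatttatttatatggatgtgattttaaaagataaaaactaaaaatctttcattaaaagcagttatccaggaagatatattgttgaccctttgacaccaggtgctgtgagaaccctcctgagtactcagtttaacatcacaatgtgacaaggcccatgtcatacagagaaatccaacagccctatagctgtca
Clstn2 intron: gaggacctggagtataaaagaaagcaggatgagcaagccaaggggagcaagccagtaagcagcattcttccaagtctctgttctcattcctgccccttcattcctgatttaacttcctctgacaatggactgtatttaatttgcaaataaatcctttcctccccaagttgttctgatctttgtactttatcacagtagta
Median peak: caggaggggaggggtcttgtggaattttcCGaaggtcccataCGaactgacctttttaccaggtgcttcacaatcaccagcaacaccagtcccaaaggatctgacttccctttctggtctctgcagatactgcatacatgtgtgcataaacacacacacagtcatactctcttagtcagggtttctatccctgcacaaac
Wnt3a intron: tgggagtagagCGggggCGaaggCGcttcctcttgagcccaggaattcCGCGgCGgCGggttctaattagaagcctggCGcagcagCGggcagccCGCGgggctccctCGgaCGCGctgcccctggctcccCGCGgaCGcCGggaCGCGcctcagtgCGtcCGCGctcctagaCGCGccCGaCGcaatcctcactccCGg
The windows in Arfip1 and Clstn2 hold 0 CpG each, with GC contents of 35.5% and 42.0%. The window of the median peak holds 2 CpG at a GC content of 48.0%. The Wnt3a window holds 28 CpG at a GC content of 72.5%, which is 1.07 times the number expected from its C and G, and it was chosen for that.

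Over all their bases, the EA-only peaks had a GC content of 44.9%, between the 41.8% of the gap-free genome and the 47.9% of shared peaks. The ratio of observed to expected CpG was 0.197 in EA-only peaks and 0.191 in the genome, and 0.306 in shared peaks and 0.354 in peaks shared with all 3 lists. Only 44 EA-only peaks (0.316%) had a ratio of at least 0.6 over the whole peak, against 213 shared peaks (1.84%). EA-only peaks as a set were therefore richer in GC than the genome and had about its CpG ratio.

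The rule rests on the H3K27me3 calls, so score and width are given as description. EA-only peaks had a median score of 57.3 (quartiles 46.5 and 81.9) and shared peaks one of 105 (60.2 and 259), while peaks shared with all 3 lists reached 615. A score of at least 100 was held by 2332 EA-only peaks (16.7%) and by 51.9% of shared peaks. Of the EA-HFSC peaks in the top 10% by score, 8.85% (7.81 to 10.02%) were EA-only, and of those in the lowest 10%, 77.7% (76.1 to 79.3%) were. The highest EA-only peak stands at rank 516 of the list, so that every stronger EA-HFSC peak was shared. EA-only peaks were narrow, with a median width of 1144 bp (quartiles 918 and 1570) against 1997 bp (1249 and 3714) for shared peaks and 5921 bp for those shared with all 3. They made up 54.6% of the peaks and 33.7% of the covered length, 19.6 of 58.2 Mb.

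**Figure D1:**
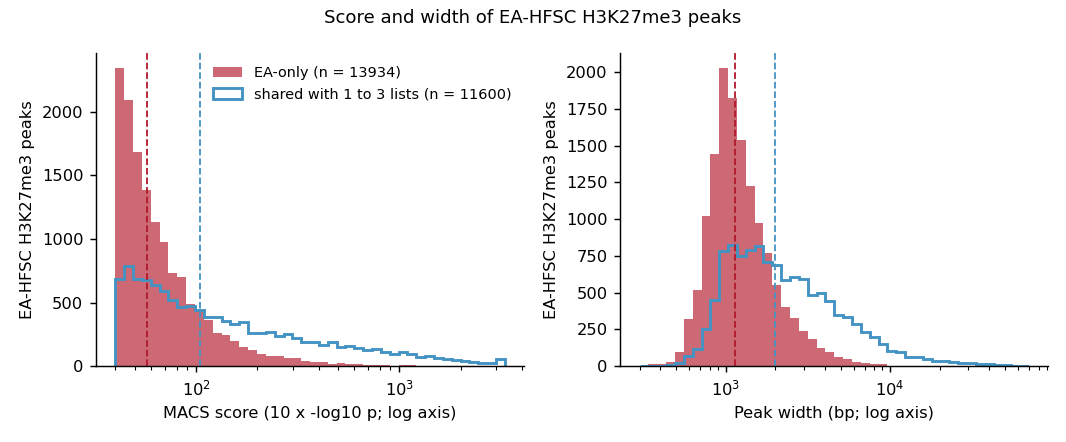
Histograms of MACS score (left) and width in bp (right), both on log axes, for the 13934 EA-only peaks (filled) and the 11600 shared EA-HFSC H3K27me3 peaks (outline); dashed lines mark the medians. The EA-only peaks pile up at the lowest scores and around 1 kb, with medians of 57.3 and 1144 bp against 105 and 1997 bp, and few reach the long right tail of the shared peaks.

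Width follows score, and the difference in width was small among weak peaks. At scores of 40 to 50 the median was 921 bp for EA-only and 1016 bp for shared peaks. At scores of 70 to 100 it was 1404 and 1562 bp, and at 100 and above 2250 and 3509 bp. Near the edge of the rule, 189 EA-only peaks lay within 100 bp of a peak of another list and 1508 (10.8%) within 1000 bp, the closest touching it with a gap of 0 bp. On the other side, 143 shared peaks owed their place to an overlap of at most 100 bp.

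The 3 other lists did not contribute alike to the choice. LC-HFSCs had 1909 H3K27me3 peaks, non-EA-HFSCs 17488 and non-LC-HFSCs 15273, and they overlapped 1699, 10427 and 7590 of the EA-HFSC peaks. Overlap with one list alone made 43 peaks shared through LC-HFSCs, 3885 through non-EA-HFSCs and 1059 through non-LC-HFSCs. An EA-only peak is thus foremost one that both non-HFSC lists lack, and leaving the LC-HFSC list out of the rule gave 13977 peaks. The same rule turned around kept 15 LC-HFSC peaks (0.786%), 6550 non-EA-HFSC peaks (37.5%) and 2679 non-LC-HFSC peaks (17.5%).

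EA-only peaks lay mostly between genes. By their middle, 9205 of the 13928 on assembled chromosomes were intergenic, or 66.1% (65.3 to 66.9%), against 58.1% (57.2 to 58.9%) of shared peaks, 45.4% (42.9 to 48.0%) of peaks shared with all 3 lists and 60.5% of the genome. Introns of protein-coding genes held 4321 (31.0%), close to the 31.4% of shared peaks and below the 35.0% of the genome. Promoters, the 1000 bp before to 100 bp after a transcript start, held 168 EA-only peaks, or 1.21% (1.04 to 1.401%). This was below the 1.83% of the genome that is promoter, while shared peaks stood at 6.06% (5.64 to 6.51%) and peaks shared with all 3 lists at 11.1% (9.65 to 12.8%). Other exons held 137, 3′ untranslated regions 85 and 5′ untranslated regions 12.

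**Figure D2:**
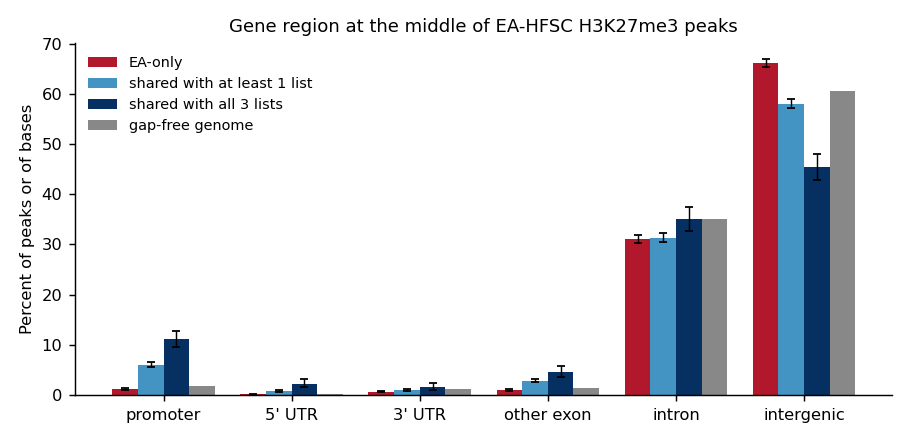
Percent of EA-HFSC H3K27me3 peaks in each gene region, by the middle of the peak, for EA-only peaks, shared peaks and peaks shared with all 3 lists, with 95% Wilson intervals, beside the percent of bases of the gap-free genome (grey). Promoters hold 1.21% of EA-only peaks, 6.06% of shared peaks and 11.1% of those shared with all 3 lists, and the intergenic share runs the other way, from 66.1% to 45.4%.

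Put the other way, 57.8% (57.0 to 58.5%) of the intergenic EA-HFSC peaks and 54.3% (53.2 to 55.4%) of the intronic ones were EA-only, but 19.3% (16.8 to 22.1%) of those in promoters. The promoter share of EA-only peaks was below that of shared peaks at every score. At scores of 40 to 50, promoters held 0.928% of EA-only and 2.91% of shared peaks, at 50 to 70, 1.14% and 3.61%, and at 70 to 100, 1.098% and 4.07%. At 100 and above they held 2.02% and 8.39%, so that the EA-only share there was above the 1.83% of the genome. The intergenic share differed less among weak peaks, with 66.8% against 63.2% at scores of 40 to 50 and 63.3% against 52.9% at 100 and above.

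EA-only peaks often lay close to H3K27me3 that other populations share. The gap to the nearest shared EA-HFSC peak had a median of 27095 bp, with quartiles of 5642 and 119014 bp. It was at most 1 kb for 1236 peaks (8.87%), at most 10 kb for 4635 (33.3%, 32.5 to 34.1%) and at most 50 kb for 8436 (60.5%, 59.7 to 61.4%). For the middle of the peak, which can be set beside positions of the genome, 32.2% lay within 10 kb and 60.3% within 50 kb of a shared peak, where 6.03% and 16.8% of the gap-free genome do. The other 5498 EA-only peaks (39.5%) were more than 50 kb away.

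**Figure D3:**
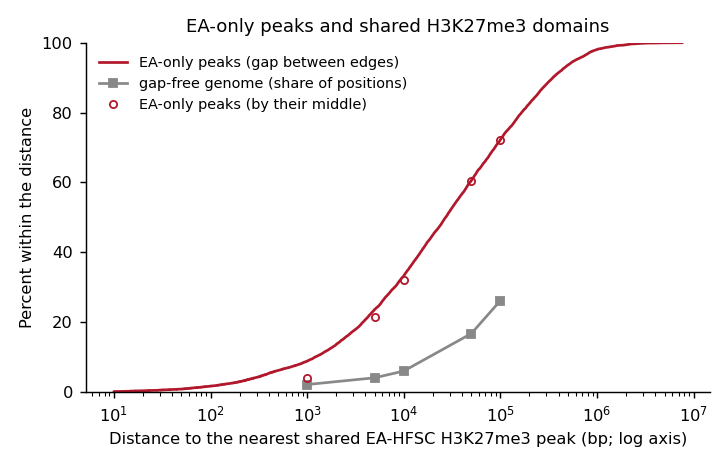
Cumulative percent of EA-only peaks by the gap in bp to the nearest shared EA-HFSC H3K27me3 peak (red line, log axis), with the same by the middle of the peak (open circles) and the percent of gap-free genome positions within each distance (grey squares). Within 50 kb the EA-only peaks reach 60.3% by their middle and the genome 16.8%.

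Domains shared by all populations were farther away, at a median of 336206 bp. By their middle, 5.72% of EA-only peaks lay within 10 kb of such a domain, against 1.41% of the genome. The other lists gave a like picture, with a median gap of 21392 bp to a non-EA-HFSC peak, 34920 bp to a non-LC-HFSC peak and 261472 bp to one of the few LC-HFSC peaks. Peaks within 1 kb of a shared peak had a median score of 65.8 and a median width of 1249 bp, and those more than 50 kb away 54.6 and 1079 bp. The intergenic share was 66.0% in the first and 67.2% in the second, and the share in promoters 1.54% and 1.51%. Between them, promoters held 1.11% of the peaks at 1 to 5 kb and 0.838% of the 5137 peaks at 5 to 50 kb.

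Many EA-only peaks lay near another one. The next EA-only peak was at a median gap of 4890 bp, and the next EA-HFSC H3K27me3 peak of any kind at 2712 bp. Shared peaks lay closer to the next EA-HFSC peak of any kind, at a median gap of 699 bp. When EA-only peaks less than 10 kb apart, with no shared peak between them, were joined, they formed 8214 blocks. Of these, 5706 were single peaks (41.0% of all EA-only peaks), and 399 held 5 peaks or more, with 3015 peaks in all (21.6%). The median score was 70.7 in blocks of 5 or more and 52.6 for single peaks.

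The largest block by far lies in Clstn2, which encodes calsyntenin 2, a cadherin-related membrane protein of synapses. It holds 54 EA-only peaks at chr9:97552265-97758302, spans 206 kb and is covered by H3K27me3 over 132 kb. Scores in it run from 42.5 to 1078 with a median of 114. The third block, of 27 peaks over 120 kb (chr9:97810892-97930591), lies in the same gene, nearer its start, and its scores reach 1132. In all, 91 EA-only peaks have their middle in Clstn2 and cover 215 kb of its 589 kb, with a median score of 101, and no shared peak and no H3K27me3 peak of another population has its middle there.

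The start of Clstn2, by contrast, was marked in non-HFSCs too. In non-EA-HFSCs a peak of 6122 bp with a score of 887 covered it (chr9:97930674-97936795), and in non-LC-HFSCs one of 5085 bp with a score of 748 (chr9:97931331-97936415). The EA-HFSC peak at the start was 11285 bp wide with a score of 474 (chr9:97931146-97942430) and counted as shared. LC-HFSCs had no H3K27me3 peak within 10 kb of the start. Within 3000 bp of it, H3K4me3 was found in EA-HFSCs and in both non-HFSC populations, with scores of 317, 96.3 and 60.1 in their lists. Beyond the stretch at the start, the Clstn2 gene body was thus marked in EA-HFSCs alone. In the body, EA-HFSCs also had 43 H3K9me3 peaks, and 28 of the 91 EA-only peaks overlapped one of the 43. LC-HFSCs had 0 there, and the early and late non-HFSCs 1 and 2. Their H3K9me3 lists are shorter, with 1414, 17873 and 18236 peaks beside 42277 in EA-HFSCs. EA-HFSCs had the most H3K9me3 peaks in each of the 10 genes with most EA-only peaks, as in Cux1 with 56 against 0, 2 and 1.

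**Figure D4:**
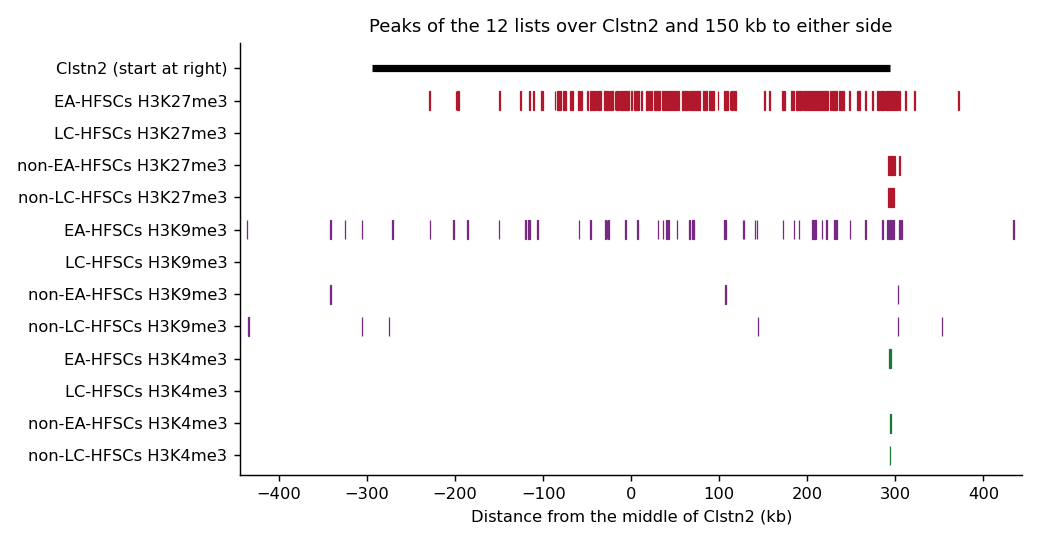
Peaks of all 12 lists over Clstn2 (black bar, start at the right) and 150 kb to either side, by distance from the middle of the gene in kb; each mark is 1 peak, drawn with a minimum line width. H3K27me3 of EA-HFSCs fills much of the gene body with 91 EA-only peaks, while non-EA-HFSCs and non-LC-HFSCs have H3K27me3 near the start alone and LC-HFSCs have none.

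A block of 28 peaks over 129 kb (chr1:122661921-122790806) has En1, a homeobox gene of limb and brain patterning, as its nearest gene start at 227369 bp, and its scores reach 639. One of 27 peaks over 115 kb (chr5:134341212-134456672) lies 176639 bp from the start of Gatsl2, with a highest score of 923. One of 25 peaks over 89.1 kb (chr9:28694886-28783961) begins in Opcml, which encodes a neural cell adhesion protein, runs past the end of that gene, and reaches 417. Non-EA-HFSCs had H3K27me3 577 bp from the En1 block and 240 bp from the Gatsl2 block, and 139745 bp from the Opcml block. None of these 5 largest blocks overlapped EA-HFSC H3K4me3, and between 5 and 14 of the peaks in each overlapped EA-HFSC H3K9me3.

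The genes with most EA-only peaks in the body were long ones, Clstn2 included. The body of 1455 of 22367 protein-coding genes, or 6.51%, held the middle of at least 1 EA-only peak, and these genes had a median length of 78.4 kb against 15.4 kb for all. Genes of 500 kb or more held 6.75% of EA-only peaks and take up 6.78% of the genome, and they held 4.36% of shared peaks. Mecom, a zinc finger regulator of blood stem cells, held 49 EA-only and 9 shared peaks, and Sox6, a Sox factor of cartilage, muscle and nerve cells, 48 and 15. Slit3, a guidance ligand, held 43 and 7, and Plxna4, a semaphorin receptor, 42 and 2. Alk, a receptor tyrosine kinase, held 40 and 7, and Ebf1, a factor of B cells, 39 and 4.

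Cux1, a homeobox factor of the CUT class, had 37 EA-only and 3 shared peaks with the highest density of these after Clstn2, 11.6 EA-only peaks per 100 kb against 15.5. Ano2, a chloride channel of the olfactory system, had 35 and 18. Fgfr2 had 39 and 66, but the annotation gives it a span of 3009 kb with 31 other protein-coding genes inside, so that its count is not that of 1 gene. In these genes the non-HFSC lists also had H3K27me3 peaks, between 1 and 15 each outside Fgfr2, so that Clstn2 was the only one of the 10 with the middle of none in its body.

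The 10 highest EA-only peaks all overlapped EA-HFSC H3K9me3 and none EA-HFSC H3K4me3. The first lies in an intron of Arfip1, which encodes a protein of Golgi traffic (chr3:85313385-85320723, 7339 bp, score 1181). It is 51 bp from a shared EA-HFSC peak and 3778 bp from the nearest LC-HFSC peak. The second is in an intron of Sox6 (chr7:122715527-122722168, score 1181), 156 bp from a shared peak and 1761 bp from one of non-EA-HFSCs. These strong EA-only peaks lie close to a shared EA-HFSC peak, and whether they belong to the same marked stretch as it was not tested.

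Others stood far from any shared mark. A peak of 7900 bp at the start of Fam124b (chr1:80209154-80217053, score 1140) is 534817 bp from the nearest shared peak, and a second one of 6996 bp just beside it has a score of 995. In Clstn2, peaks of 10741 bp (score 1132) and 4702 bp (score 1078) are 80315 and 246554 bp from a shared peak. A peak with a score of 1069 is 161877 bp from a shared one, and Mapk8, a stress kinase, is the gene with the nearest start.

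A further pair of the 10 are intergenic and have scores of 1109 and 1095. Unlike those far from a shared mark, they lie 4122 and 33 bp from a shared EA-HFSC peak. The nearest LC-HFSC peaks are at 5227 and 3015 bp. The nearest starts are those of Adamts9, a matrix protease, at 581755 bp and of 1810046K07Rik at 49421 bp. Among the 100 highest EA-only peaks, 52 were intergenic, 45 intronic and 2 in a promoter, and 29 lay within 5000 bp of a peak of another list. The widest EA-only peak, of 21683 bp with a score of 538, lies in Tsc22d3, a glucocorticoid-induced gene on chromosome X. The next widest, of 15996 bp, runs to Sox21 with a score of 49.0, and one of 15223 bp lies near Spon1 with a score of 153. The other two of the 5 widest have scores of 323, near Gm4980, and 817, between genes.

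H3K4me3 was rare on EA-only peaks. An EA-HFSC H3K4me3 peak overlapped 180 of them, or 1.29% (1.12 to 1.49%), against 18.1% (17.4 to 18.8%) of shared peaks and 44.8% (42.3 to 47.4%) of those shared with all 3 lists. The lists of the other populations gave 0.689% in LC-HFSCs, 1.4999% in the early and 1.17% in the late non-HFSCs, against 7.79%, 15.3% and 10.8% of shared peaks. Shared peaks were wider, and overlap by any base can grow with width. By the middle of the peak, EA-HFSC H3K4me3 lay on 0.826% of EA-only and 9.15% of shared peaks, beside 2.19% of the genome. The rule did not use this mark, and the difference by any base was there in each score class. H3K4me3 overlapped 0.742% (0.536 to 1.03%) of EA-only and 5.07% (4.11 to 6.25%) of shared peaks at scores of 40 to 50, and 2.87% (2.27 to 3.63%) against 27.9% (26.7 to 29.0%) at 100 and above.

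H3K9me3 of EA-HFSCs overlapped 2893 EA-only peaks, or 20.8% (20.1 to 21.4%), and 42.3% (41.4 to 43.2%) of shared peaks. By the middle of the peak the shares were 12.5% and 23.9%, beside 1.48% of the genome. Both shares by any base rose with score. At scores of 50 to 70 the shares were 17.7% (16.6 to 18.8%) and 18.7% (17.2 to 20.4%), whose intervals overlap, and at 40 to 50 13.1% and 15.6%. At 70 to 100 they were 21.6% and 26.1%. Of these classes the gap was widest at 100 and above, with 41.6% (39.6 to 43.6%) of EA-only and 62.8% (61.6 to 64.1%) of shared peaks. This class has no upper limit, and shared peaks scored higher within it. Of its 2332 EA-only and 6016 shared peaks, 605 and 3546 scored at least 200. The gap was smaller in each finer class. In finer classes the shares were 34.9% and 39.0% at 100 to 200, 52.4% (47.8 to 57.0%) and 61.9% (59.5 to 64.3%) at 200 to 400, and 82.8% and 88.4% at 400 to 800. At 800 and above, 24 of 25 EA-only peaks (96.0%, 80.5 to 99.3%) and 99.4% of shared peaks overlapped H3K9me3.

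**Figure D5:**
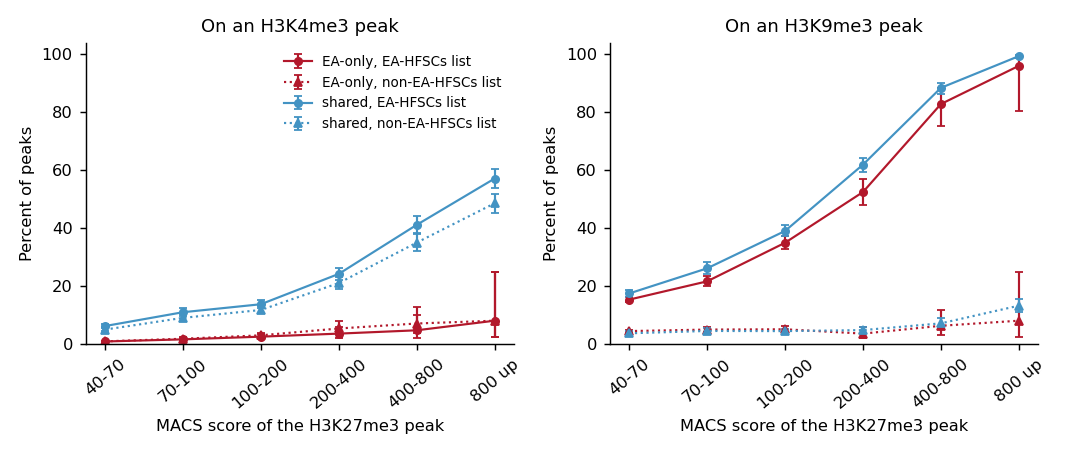
Percent of EA-only (red) and shared (blue) EA-HFSC H3K27me3 peaks that overlap an H3K4me3 peak (left) or an H3K9me3 peak (right), by score class of the H3K27me3 peak, for the lists of EA-HFSCs (solid) and non-EA-HFSCs (dotted), with 95% Wilson intervals. On H3K9me3 of EA-HFSCs both sets rise with score, to 96.0% and 99.4% at 800 and above, while on H3K4me3 the EA-only peaks stay at 8.00% or less and the shared peaks reach 57.1%.

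By any base, H3K9me3 of the other populations overlapped 0.567% of EA-only peaks for LC-HFSCs, 4.58% for the early and 4.14% for the late non-HFSCs. For shared peaks these shares were 0.517%, 5.16% and 11.3%. By the middle of the peak they were 0.4595%, 3.604% and 2.32% for EA-only peaks and 0.285%, 2.22% and 3.098% for shared peaks. The EA-only share by the middle was thus the higher one in the LC-HFSC and early non-HFSC lists and the lower one in the late non-HFSC list. These lists are shorter, with 1414, 17873 and 18236 H3K9me3 peaks beside 42277 in EA-HFSCs, and cover 0.103%, 0.920% and 0.455% of the genome beside 1.48%, so that the shares of different lists cannot be set against each other directly. Of the 3150 EA-HFSC H3K9me3 peaks on EA-only peaks, 86.8% had no H3K9me3 counterpart in the other 3 lists, close to the 84.6% over all EA-HFSC H3K9me3 peaks. Where the marks overlapped, H3K9me3 covered a median of 45.6% of the EA-only peak. For the EA-HFSC lists of both marks, chromatin was divided between the antibodies and IgG of that population was the control, and the part of this in their overlap was not tested. Neither mark was found in any population on 10294 EA-only peaks (73.9%), against 48.5% of shared peaks, and both were found in EA-HFSCs on 85 (0.610%), against 13.2%.

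Few gene starts had an EA-only peak. Within 3000 bp of the start, 622 of 22367 protein-coding genes, or 2.78%, had one, while 2442 had a shared EA-HFSC peak. Of the 622, 146 also had a shared EA-HFSC peak at the start, and 454 had H3K27me3 at the start in EA-HFSCs and in no other population. These 454 genes were not bivalent starts for the most part. EA-HFSC H3K4me3 was found at 176 of them, or 38.8% (34.4 to 43.3%), against 60.4% of all genes and 64.9% of genes with a shared peak. The other populations had H3K4me3 at 29.7% (LC-HFSCs), 38.5% (early non-HFSCs) and 36.1% (late non-HFSCs) of the 454, where all genes had 53.9%, 59.6% and 56.6%. EA-HFSC H3K9me3 stood at 44.9% of them, close to the 45.2% of all genes.

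Among the 10 highest EA-only peaks at a gene start, 6 overlapped EA-HFSC H3K4me3. The peak at Ttll11, a tubulin-modifying enzyme, had a score of 903 (chr2:35832654-35839401), but lay 37 bp from a non-EA-HFSC peak. That at Ppp2r2c, a regulatory subunit of protein phosphatase 2A, had 669 (chr5:37259926-37264735) and a non-LC-HFSC peak at 111 bp. Both starts had H3K4me3 in all 4 populations. The peak at Hs3st2, a heparan sulfate sulfotransferase, had 821 (chr7:128534690-128539651), with H3K4me3 in EA-HFSCs alone and the nearest H3K27me3 peak of another population at 224735 bp. These peaks differ in how far they stand from the marked chromatin of other cells.

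The peak at Thsd4, an extracellular matrix protein, had a score of 473, and H3K4me3 in all populations but LC-HFSCs. The peaks at Slc16a9 (620), Far2 (511) and Pcp4 (496) had no H3K4me3, nor had that at Fam124b. Those at Slc16a9 and Pcp4 lay 212 and 73 bp from a shared EA-HFSC peak, and that at Far2 1003379 bp. Slc16a9 is a solute carrier, Far2 makes fatty alcohols, and Pcp4 binds calmodulin. The only peak without a nearby gene among the 5 highest with EA-HFSC H3K4me3 had a score of 738 and lay 224968 bp from Klf5, a factor of epithelial proliferation (chr14:99918242-99927513), with H3K4me3 in all 4 populations.

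Wnt signals start the growth phase of the follicle, and 4 of 50 genes for Wnt ligands, receptors and modulators had an EA-only peak at the start (8.00%, 3.15 to 18.8%), beside 2.78% over all genes. The receptor gene Fzd10 had a peak of 2998 bp with a score of 558 (chr5:129103923-129106920), 44583 bp from the nearest shared peak. The ligand gene Wnt3a had a peak of 4538 bp with a score of 510 (chr11:59099805-59104342), whose CpG-rich stretch is printed above, and the nearest H3K27me3 of another population, of non-EA-HFSCs, lay 13702 bp away. Both starts carried H3K4me3 in all 4 populations and H3K9me3 in EA-HFSCs, and H3K27me3 in EA-HFSCs alone.

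The ligand gene Wnt10b had a weaker peak (score 85.9) and H3K4me3 in all populations but LC-HFSCs. At Rspo3, a secreted enhancer of Wnt signals, the EA-only peak had a score of 64.5 and a shared peak stood beside it. A shared EA-HFSC peak was found at 21 of the 50 genes (42.0%), beside 10.9% over all genes, so that this list was above all genes for both kinds of peak.

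Among 14 genes known for bulge stem cells, Sox21 alone had an EA-only peak at the start (7.14%, 1.27 to 31.5%), beside 2.78% over all genes. Sox21 is a Sox factor of the hair shaft, and its peak had 2153 bp and a score of 137 (chr14:118638233-118640385), beside the 15996 bp peak named above. Its start had H3K4me3 in all 4 populations, and the nearest H3K27me3 peak of another population lay 62554 bp from the wide peak. None of the 14 had a shared EA-HFSC peak at the start, beside 10.9% over all genes. Both counts are too small for a comparison with all genes.

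Homeobox and Pax genes, classical Polycomb targets, had shared peaks at most of their starts. Of 183 of them, 140 (76.5%) had a shared EA-HFSC peak at the start and 2 (1.09%, 0.300 to 3.90%) an EA-only one, Dbx2 (score 193) and Pax4 (122), and both had a shared peak as well. Of 51 T-box, GATA and bHLH genes, 39 had a shared peak and 3 (5.88%) an EA-only one, Tbx19 (90.9), the muscle factor Myf6 (69.99) and Atoh7 (43.0). Myf6 was the one of these 3 with H3K27me3 in EA-HFSCs alone. Of 61 forkhead and Sox genes, 32 had a shared and 4 (6.56%) an EA-only peak, Foxi2 (88.1), Foxi1 (48.9) and Foxs1 (41.4) beside Sox21. Foxi2 and Foxs1 had a shared peak as well. Over all genes, 2442 starts had a shared peak and 622 an EA-only one.

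Lists of nerve cell genes had EA-only peaks at 5.88 to 9.62% of their starts, beside 2.78% over all genes. They had shared peaks at 41.2 to 48.1%, beside 10.9% over all genes. For potassium, sodium and calcium channels the EA-only count was 8 of 136 (5.88%, 3.01 to 11.2%). It was 5 of 52 (9.62%, 4.18 to 20.6%) for glutamate, GABA and glycine receptors. For synaptic adhesion genes it was 6 of 68 (8.82%, 4.11 to 17.9%). The strongest were Kcnj6, a potassium channel (score 454, chr16:95217657-95220965), Cacng5, a calcium channel subunit (273), and the adhesion genes Cntn4 (258), Csmd1 (212) and Cntnap4 (187). None of these 5 starts had H3K4me3 in any population, and none had H3K27me3 in another population. The receptor genes Gabrb2 (143) and Grik2 (73.0) had H3K4me3 in EA-HFSCs and non-EA-HFSCs, and Gria1 (136) in none. The bodies of the channel, receptor and adhesion genes held 0.730, 0.455 and 0.438 EA-only peaks per 100 kb, beside 0.463 over all genes.

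The other channel genes with an EA-only peak were led by Kcna10 (121), Kcna4 (113), Kcne3 (111) and Kcnip1 (72.7). At Kcne3, non-EA-HFSCs had H3K27me3 too. Grin2a (46.2), Lrrn2 (106) and Odz2 (58.2) had a shared peak at the start as well, and Nrg4 (74.1), a growth factor gene, did not.

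None of 92 keratin and keratin-associated genes had one at the start (0%, up to 4.01%), and 5 had a shared peak. Of 60 genes of epidermal differentiation, 2 had one (3.33%, 0.919 to 11.4%), Lce3a (score 54.4) and Lor (44.5), which encodes loricrin of the cornified envelope, and none a shared peak. At Lor, H3K4me3 was found in all 4 populations. Of 65 genes for BMP, TGF-beta and FGF signals, 3 had one (4.62%), Fgf23 (74.8), Bmp4 (43.5) and Gdf3 (41.9), and 26 a shared peak. These 5 peaks had scores between 41.9 and 74.8. At Bmp4 a shared EA-HFSC peak stood at the start as well, and at Fgf23 both non-HFSC populations had H3K27me3. At Gdf3, Lce3a and Lor, H3K27me3 was found in EA-HFSCs alone. Over all genes, 2.78% of starts had an EA-only peak and 10.9% a shared EA-HFSC peak.

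Of 79 collagens, laminins and integrins, 4 had an EA-only peak at the start, Col23a1 (194), Col6a6 (76.1), the fibronectin receptor chain Itga5 (63.9) and Col6a4 (58.5), and 19 a shared one. Of 59 cadherins and protocadherins, 4 had one, Pcdhgc5 (86.9), Cdh7 (61.8), Pcdhb15 (52.1) and the endothelial cadherin Cdh5 (45.3). Of 102 genes of cell cycle and DNA replication, the E2f7 gene (73.4) was the single one. At Col6a6 and E2f7 a shared EA-HFSC peak stood at the start as well. The shares were 3.33% for the epidermal, 5.06% for the matrix, 6.78% for the cadherin and 0.980% for the cell cycle list, beside 2.78% over all genes.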

How the data were processed

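The authors aligned trimmed single-end reads to mm9 with Bowtie2 (trimming with Trimmomatic 0.22), removed alignments of low quality, pooled the reads of repeated experiments and ran MACS 1.4 on each mark with that population's IgG reads as control. The deposited lists hold a position and a score per peak, and the authors' score is a negative log10 p-value times 10, with a lowest value of 40 (p = 0.0001) for H3K27me3. The 4 IgG samples of the 16 have no list here. Read counts per library are not in the lists, so the depth behind a peak is unknown; per the study's methods, the late catagen HFSC libraries had the higher read numbers of both HFSC stages, and unequal depth or background can move peaks across the threshold.

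Overlap (1 bp), gaps and coverage came from scripts in Python 3.11.15 (scipy 1.17.1, numpy 2.4.6). The code was tested on simulated data (6 of 6 settings recovered on 5000 peaks), and bedtools 2.31.1 gave the same 13934 peaks. Positions are 1-based on mm9, the assembly of the NCBIM37 sequence and the GENCODE vM1 annotation used; all peaks on the 21 chromosomes lay within their lengths, and 6 EA-only peaks on unplaced sequence took no part in gene regions. Genes were the 22367 protein-coding genes. A peak took the first class its middle fell in, from promoter over untranslated region, other exon and intron to intergenic.

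Genes and peaks were named by rule: the 10 highest EA-only peaks, the 10 highest at a gene start, the 10 genes with most in the body, the 5 highest with EA-HFSC H3K4me3, the 5 largest blocks, the 5 widest, and up to 6 genes of each of 16 gene lists. A few items that meet this rule are not reported here. Members and lists were chosen with earlier results of these data known. Alternatives were other score thresholds, gaps, overlaps and windows, the 19 autosomes alone, score classes and, added after the data had been seen, the rule without each of the other lists.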

Additional observations from a re-analysis of the deposited data

How the results depend on the processing

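No paired analysis was possible because there is 1 list per population and mark. The direction of each comparison with shared peaks inside the score classes is given in the report. The number of EA-only peaks stayed within 1.5 times under all alternatives but 2: it was 3719 when every list was limited to scores of 100 and above and 2332 when the EA-HFSC list alone was. Leaving one list at a time out of the rule gave 13977 (LC-HFSCs), 17819 (early non-HFSCs) and 14993 (late non-HFSCs). The share of EA-HFSC peaks was 52.3% and 44.5% with thresholds of 50 and 100 for all lists, 27.9% with 100 for EA-HFSCs alone, 48.7% and 38.3% with gaps of 1 and 5 kb counted as shared, and 59.3% where 50% of the peak had to be overlapped. In that order of settings, the median width was 1357, 2332 and 2250 bp, 1123 bp at 5 kb and 1175 bp at 50%, and the median distance to a shared domain 29334 and 49240 bp for the thresholds of 50 and 100 in every list, 32691 and 49611 bp for the gaps and 30088 bp at 50%. It was 336206 bp to domains shared in all 3 other lists. With the 3 score thresholds, the share in promoters was 1.54%, 2.50% and 2.02%, that on H3K4me3 1.64%, 4.19% and 2.87% and that on H3K9me3 25.3%, 43.6% and 41.6%, and the intergenic share was 64.5% and 63.3% for the last 2. At 50% overlap the shares on H3K4me3 and H3K9me3 were 1.51% and 21.9%. By any base of the peak, 2.71% were in promoters. Genes with an EA-only peak at the start numbered 316 and 152 at the thresholds of 100, 393 at 5 kb and 316 within 1000 bp of the start. By score class (40 to 50, 50 to 70, 70 to 100, 100 and above), the median width was 921, 1080, 1404 and 2250 bp, the share on H3K4me3 0.742%, 0.913%, 1.56% and 2.87% and that on H3K9me3 13.1%, 17.7%, 21.6% and 41.6%; the share in promoters was 0.928% in the first and 2.02% in the last, and the intergenic share 63.3% in the last. Restricting to autosomes changed none of these beyond the counting interval. With no read counts, depth could not be set equal between the lists.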

Other observations

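EA-only peaks were spread over all autosomes, from 3.77 per Mb of gap-free sequence on chromosome 16 to 7.84 on chromosome 9. Their share of the EA-HFSC H3K27me3 peaks ran from 47.9% on chromosome 4 to 67.4% on chromosome 14. Chromosome X held 38 EA-only peaks (0.234 per Mb), or 30.6% of its 124 EA-HFSC peaks. The other H3K27me3 lists were sparse on chromosome X too, with 101 peaks in non-EA-HFSCs, 86 in non-LC-HFSCs and 16 in LC-HFSCs. The labels and the methods differ on the sex of the mice, and the part of sex in these values was not tested.

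Chemosensory receptor genes, which lie in large clusters and are silent in skin, had an EA-only peak at 29 of 1422 starts (2.04%, 1.42 to 2.91%) and a shared EA-HFSC peak at 21 (1.48%). Over all genes these shares were 2.78%, which lies inside the interval, and 10.9%. In this list, the epidermal one (2 against 0) and the bulge one (1 against 0), EA-only starts were more numerous than shared ones, where over all genes shared ones were. The interval of the chemosensory EA-only share takes in the shared 1.48%. The epidermal and bulge counts are too small for a comparison with all genes. The highest scores were 111 at Olfr155, 86.7 at Olfr285, 83.1 at Olfr1366, 77.2 at Olfr1396, 74.5 at Olfr412 and 70.8 at Olfr1416. None of these 6 starts had H3K4me3 in any population. Olfr1366, Olfr412 and Olfr1416 had H3K27me3 of a non-HFSC population at the start as well.

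Zinc finger genes of the Zfp series, many of which encode KRAB repressors, had an EA-only peak at 9 of 371 starts (2.43%, 1.28 to 4.55%). The share over all genes, 2.78%, lies inside this interval. The highest were Zfp830 (182), Zfp800 (159), Zfp563 (95.2), Zfp558 (70.4), Zfp641 (64.2), which had a shared peak as well, and Zfp54 (48.6). Of these 6, Zfp558 alone had no H3K4me3 in any population, and Zfp54 alone had no H3K9me3 peak of any population on it.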
